A study of Mus musculus with 4 samples.

Results

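Mature dendritic cells that express Ccr7 and Fscn1 were followed in 4 single-cell RNA-seq libraries from the injured hemisphere of mice with ischaemic stroke. A cell was counted as one of them when it held at least 1 UMI of Ccr7, at least 1 of Fscn1 and at least 5 of Cd74. It also had to hold no UMI of the T-cell genes Cd3e, Cd3g and Trac, none of the B-cell genes Cd79a and Ms4a1, and at most 2 UMIs in all of the microglial genes P2ry12, Tmem119, P2ry13, Gpr34, Olfml3 and Fcrls. A UMI is a molecular tag that marks 1 captured transcript. By this rule, 104 of 55902 cells were mature dendritic cells, or 0.186%. They were 25 cells with IL-4/C1q EV, 58 cells with IL-1a/TNFa/C1q EV, 16 cells with UT EV and 5 cells with MAPS alone.

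All 4 groups were wild-type mice that underwent stroke and had hydrogel microspheres, MAPS, placed in the infarct cavity at day 5, with the hemisphere on the lesion side taken at day 14. In 3 groups the microspheres carried extracellular vesicles of astrocytes. These groups are called IL-4/C1q EV here for the label IL-4 C1q EV+MAPS, IL-1a/TNFa/C1q EV for the label IL-1a TNFa C1q EV+MAPS, and UT EV for the label UT EV+MAPS. The UT EV vesicles came from untreated astrocytes. The remaining group received MAPS without vesicles. Every group, MAPS included, thus carried both the stroke and the implant, and mice without an implant were not analysed here. Each group was 1 library whose number of animals is not labelled, so no difference between groups could be tested. Intervals given below are 95% intervals that cover counting error only.

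Dendritic cells take up antigen in tissue and, once activated, enter a mature state in which antigen uptake is shut down and the cell is equipped to leave. In that state the chemokine receptor Ccr7 guides the cell along CCL19 and CCL21 toward lymph vessels and lymph nodes, and the actin-bundling protein fascin, encoded by Fscn1, shapes its long dendrites. Mature cells are also known for secreting chemokines such as CCL22 and CCL17, which attract T cells through CCR4, for cytokines such as the IL-12 subunit encoded by Il12b, and for inhibitory molecules such as PD-L1, encoded by Cd274. Non-canonical NF-kB signalling through RelB and p52, the product of Nfkb2, is a known driver of this state.

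Nfkb2 was the only gene of the mature dendritic cell list, Ccr7 and Fscn1 included, with the NF-kB-type motif searched (GGG, then any 2 bases, then TTTCC) in its promoter windows, and its sequence is shown for that reason. The windows ran from 250 bases before to 50 bases after each RefSeq transcript start in build GRCm38.p6, both strands were read, and 30 of the 42 genes had an entry. The motif was found in 1 of those 30 genes, or 3.33%, and in 512 of all 27025 genes, or 1.89%. The match is a description of the letters and not a measured binding site. The first of the Nfkb2 windows, at chr19:46304487-46304786 on the plus strand, reads as follows, 5′ to 3′, with the motif in capitals.
Nfkb2: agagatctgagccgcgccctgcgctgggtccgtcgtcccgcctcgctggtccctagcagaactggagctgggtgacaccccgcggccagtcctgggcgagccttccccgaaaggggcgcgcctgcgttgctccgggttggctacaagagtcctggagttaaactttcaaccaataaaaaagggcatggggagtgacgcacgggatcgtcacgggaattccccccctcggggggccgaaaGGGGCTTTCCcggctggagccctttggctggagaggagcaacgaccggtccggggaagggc
In the mature dendritic cells Nfkb2 stood at 91.9 CPM (UMIs of a gene summed over the cells, scaled to a common total of 1e+06 UMIs per group) with IL-4/C1q EV, 78.3 CPM with IL-1a/TNFa/C1q EV, 63.2 CPM with UT EV and 103.7 CPM with MAPS. Other conventional dendritic cells held 34.2, 21.6, 33.0 and 83.2 CPM of Nfkb2 in the same libraries. These levels rest on few UMIs, and the MAPS level in mature cells is that of 3 UMIs. Over both kinds of cells Nfkb2 held under 100 UMIs, the least required of the genes counted in that contrast below.

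The 4 libraries held 12766 to 14978 cells that passed the filters, with a median of 2480 UMIs per cell with IL-4/C1q EV, 2608 with IL-1a/TNFa/C1q EV, 2673.5 in UT EV and 4557 with MAPS. The mature dendritic cells were deeper than the average cell, with medians of 3732, 3920.5, 4409 and 6609 UMIs in the same order of groups. Their summed UMIs, which set the precision of every level below, were 97978 with IL-4/C1q EV, 229771 with IL-1a/TNFa/C1q EV, 79054 in UT EV and 28916 with MAPS. Pairs of libraries shared 41 to 63 cell barcodes. A doublet caller marked 1, 2, 0 and 0 of the mature cells.

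The share of mature dendritic cells was highest with IL-1a/TNFa/C1q EV and lowest with MAPS alone. They were 0.175% of cells with IL-4/C1q EV (0.113 to 0.258%), 0.387% with IL-1a/TNFa/C1q EV (0.294 to 0.5%), 0.125% with UT EV (0.0717 to 0.203%) and 0.0361% with MAPS (0.0117 to 0.0843%). The share with IL-1a/TNFa/C1q EV was 3.09 times that with UT EV (1.75 to 5.76) and 10.7 times that with MAPS (4.34 to 34.2). The share with IL-4/C1q EV was 0.451 times that with IL-1a/TNFa/C1q EV (0.270 to 0.732), 4.83 times that with MAPS (1.82 to 16.1) and 1.39 times that with UT EV, with an interval of 0.715 to 2.79 that spans 1. The share with UT EV was 3.47 times that with MAPS (1.21 to 12.1). After every cell was thinned to 2000 UMIs and shallower cells were left out, the order was the same, with shares of 0.141%, 0.390%, 0.0898% and 0.0248%. The IL-1a/TNFa/C1q EV library held no kept cell below 1233 UMIs, whereas the others reached down to 500. With 1233 UMIs required throughout, its share was 2.67 times that of UT EV and 12.3 times that of MAPS. In that library 21 of 58 mature cells held exactly 1 UMI of Fscn1, against 1 of 16 with UT EV. With 2 UMIs of Ccr7 and Fscn1 required, the same ratios were 2.19 and 11.1. Over all settings the ratio over UT EV ran from 2.19 to 4.83.

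**Figure D1:**
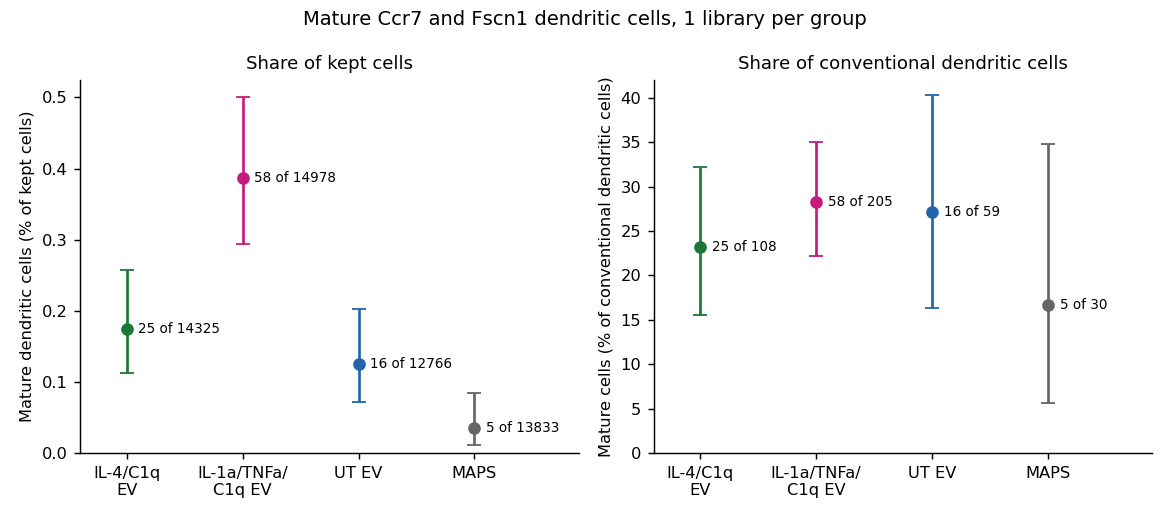
Mature dendritic cells as a percent of kept cells (left) and as a percent of all conventional dendritic cells (right) in each library, with exact 95% Clopper-Pearson intervals for counting error and the cell counts beside each point. The left shares run from 0.0361% with MAPS to 0.387% with IL-1a/TNFa/C1q EV, whereas the right shares lie between 16.7% and 28.3% with intervals that overlap.

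Other conventional dendritic cells followed the same order of groups. These are cells with Cd74 and at least 2 UMIs of the dendritic genes Flt3, Zbtb46, Cd209a, Xcr1 and Clec9a that held no UMI of Ccr7, Fscn1 or the plasmacytoid gene Siglech, and there were 83, 147, 43 and 25 of them. Their share with IL-1a/TNFa/C1q EV was 2.91 times that with UT EV (2.06 to 4.19), and with IL-4/C1q EV 1.72 times that with UT EV (1.18 to 2.55). Within all conventional dendritic cells the mature cells were 23.1% with IL-4/C1q EV (15.6 to 32.2%), 28.3% with IL-1a/TNFa/C1q EV (22.2 to 35.0%), 27.1% with UT EV (16.4 to 40.3%) and 16.7% with MAPS (5.64 to 34.7%). These 4 intervals overlap, and with 1 library per group a difference in the mature share among dendritic cells could not be tested.

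Ccr7 alone would not have picked these cells. Ccr7 was found in 157 cells with IL-4/C1q EV, 363 with IL-1a/TNFa/C1q EV, 107 in UT EV and 475 with MAPS, and mature dendritic cells were 15.92%, 15.98%, 14.95% and 1.05% of them. T-cell genes were present in 38, 110, 34 and 241 of these Ccr7 cells. Fscn1 alone is less specific still in brain, where it was found in 37.4%, 27.2%, 37.0% and 82.3% of oligodendrocyte-like cells and in 20.7%, 17.7%, 23.01% and 67.1% of microglia-like cells. Ccr7 was found in 0.334%, 0.669%, 0.195% and 1.26% of microglia-like cells, whose median depths were 3077, 3239, 3342 and 4847 UMIs.

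The values of the rule genes themselves are a description, because they chose the cells. Ccr7 had a median of 5 UMIs per mature cell with IL-4/C1q EV (lowest 1, highest 22), 5.5 with IL-1a/TNFa/C1q EV (1 to 21), 8 with UT EV (1 to 14) and 14 with MAPS (2 to 52). Fscn1 had medians of 3, 2, 2.5 and 5 UMIs, and highest values of 13, 12, 8 and 30. The Cd74 median was 10 UMIs with IL-4/C1q EV, 27 with IL-1a/TNFa/C1q EV, 17 in UT EV and 196 with MAPS. The 5 MAPS cells had the highest median depth but were uneven: 2 of them, with 1071 and 6516 UMIs, held no Ccl22, Ccl5, Il4i1 or Relb, while the 3 others held 32, 52 and 14 UMIs of Ccr7.

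The labelled marker chemokine Ccl22 was present in 36% of mature cells with IL-4/C1q EV, 46.6% with IL-1a/TNFa/C1q EV, 25% in UT EV and 60% with MAPS. In other conventional dendritic cells it was present in 7.23%, 7.48%, 9.30% and 4%, and in microglia-like cells in at most 0.322%. One MAPS cell held 94 of the 97 Ccl22 UMIs of its group. Ccl17 did not set the mature cells apart: it was present in 8%, 29.3%, 12.5% and 20% of them, and in 10.8%, 22.4%, 18.6% and 4% of other conventional dendritic cells. One cell with IL-1a/TNFa/C1q EV held 71 of the 114 Ccl17 UMIs of that library. At least 1 UMI of Ccl22 or Ccl17 was seen in 52 of the 104 mature cells.

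**Figure D2:**
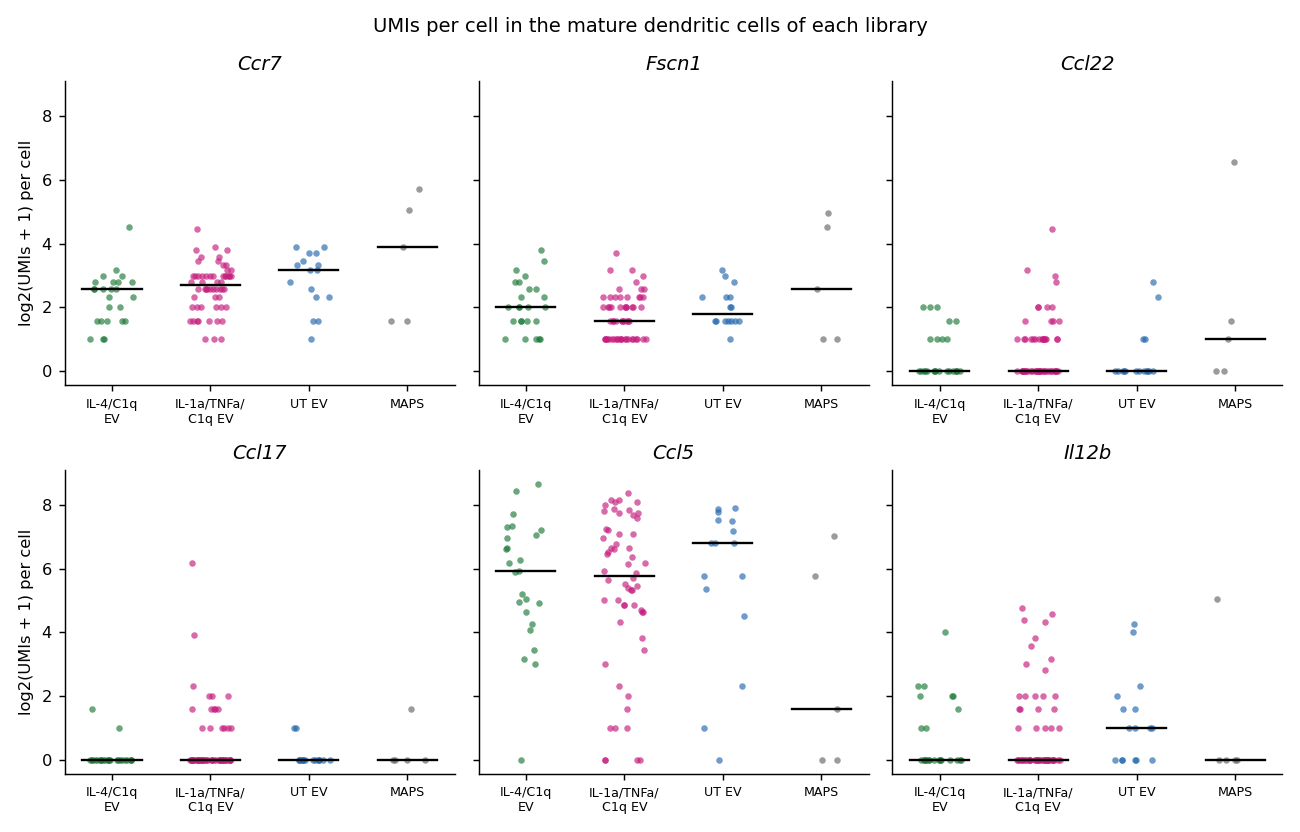
UMIs per cell on a log2(UMIs + 1) axis for Ccr7, Fscn1, Ccl22, Ccl17, Ccl5 and Il12b, with 1 point per mature dendritic cell and a bar at the median of each library. Ccl5 has medians of 60, 54 and 110 UMIs in the 3 vesicle libraries and 2 UMIs with MAPS, while the medians of Ccl22 in the vesicle libraries are 0.

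Ccl5, a chemokine that recruits T cells, monocytes and other leukocytes, was among the most abundant transcripts of the mature cells in the vesicle libraries and was no part of the rule. It had a median of 60 UMIs per cell with IL-4/C1q EV (lowest 0, highest 405), 54 with IL-1a/TNFa/C1q EV (0 to 328), 110 with UT EV (0 to 238) and 2 with MAPS (0 to 130). Only 1, 4, 1 and 2 cells held none, so nearly every cell of the vesicle libraries carried it. Summed over cells Ccl5 stood at 23903, 23415, 21479 and 6398 CPM, against 41.1, 561, 294 and 78.0 CPM in other conventional dendritic cells. Oligodendrocyte-like cells, which should lack it, held 67.0, 205, 75.0 and 150.5 CPM.

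Within each library the mature cells were set against the other conventional dendritic cells. Both sets were chosen from values of these cells, so the contrast describes the 2 sets and is not a test. Of 40 genes listed for the mature programme, 24 reached 100 UMIs in all over the 2 sets, and 22 of these were at least 1.5-fold higher in the mature cells of all 4 libraries when 0.5 UMIs were added to each sum. Nudt17 is one of the 22 with only 1 UMI against 0 with MAPS, so 21 genes were higher in all 4 libraries on more than 3 UMIs. Of all 1880 genes measured, 8.30% were that much higher in all 4 libraries and 11.3% that much lower. The median log2 ratio of the programme was 3.95 with IL-4/C1q EV, 4.07 with IL-1a/TNFa/C1q EV, 4.03 in UT EV and 4.20 with MAPS, beside -0.18, -0.11, -0.10 and -0.02 over all genes. With genes at 0 UMIs placed at a floor of 3 UMIs, the programme medians were 3.99, 4.11, 4.14 and 3.96. The exceptions were Ccl17 and Clu.

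**Figure D3:**
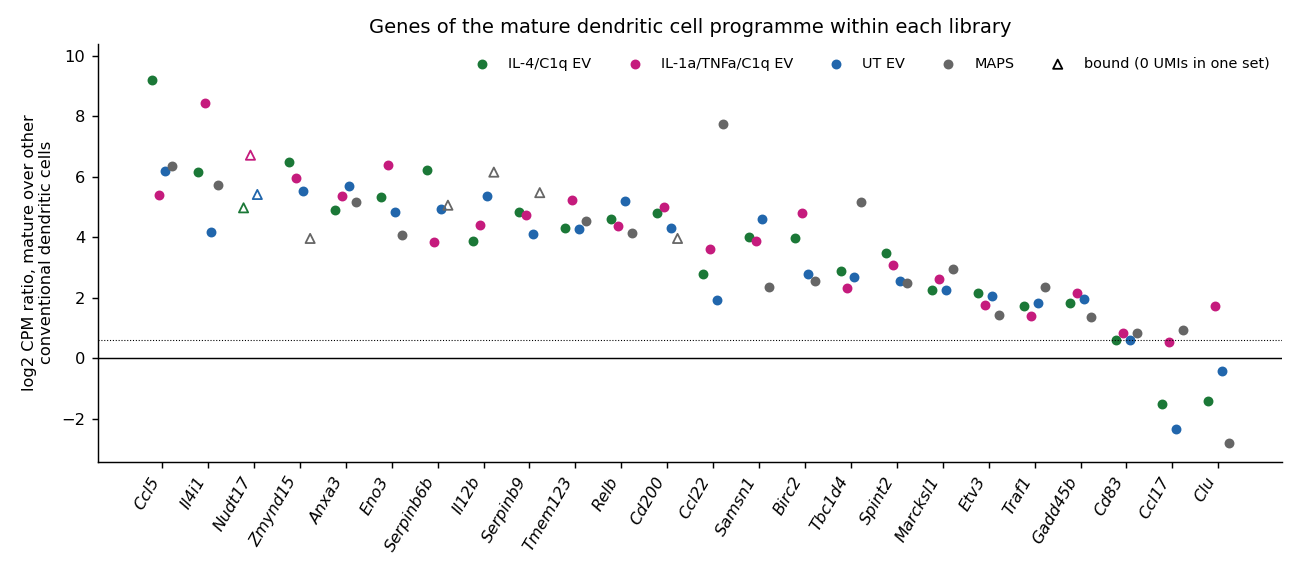
Log2 CPM ratio of the 24 measured programme genes, mature over other conventional dendritic cells, with 1 point per library and open triangles where a set held 0 UMIs and the floor of 3 UMIs was used. The dotted line marks 1.5-fold, and all plotted points but those of Ccl17 and Clu lie at or above it. Nudt17 has no MAPS point because both sets held at most 3 UMIs there.

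Tnfrsf4 led the contrast by its lowest ratio over the 4 libraries, followed by Ccl5, Zmynd15, Ramp3 and Anxa3. Tnfrsf4, which encodes the costimulatory receptor OX40, held 265 CPM with IL-4/C1q EV, 283 CPM with IL-1a/TNFa/C1q EV, 506 CPM with UT EV and 104 CPM with MAPS, and 0 UMIs in other conventional dendritic cells of all 4 libraries. In the vesicle libraries it was at least 38.8-fold, 65.4-fold and 46.0-fold higher, taken against the floor of 3 UMIs. It was found in 13 of 25, 26 of 58, 9 of 16 and 2 of 5 mature cells. Relb, the transcription factor of the non-canonical NF-kB pathway, stood at 388, 265, 405 and 726 CPM in mature cells and 15.97, 12.98, 11.01 and 41.6 CPM in the others. It was found in 18, 37, 12 and 3 mature cells. Over the 13 measured genes of the NF-kB list, 6 were at least 1.5-fold higher in all 4 libraries and 1 was lower, beside 8.30% and 11.3% of all genes.

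Secreted products were mixed. Of 5 measured cytokines 1 was at least 1.5-fold higher in all 4 libraries and 2 were lower, and of 12 chemokine ligands 3 were higher and 2 lower. Over all genes 8.30% were that much higher and 11.3% that much lower, and lists this short can hardly be told from such shares. The cytokine medians were -0.31, -0.68, -1.78 and 3.18 on the log2 scale, and the chemokine medians 0.29, -0.13, -2.13 and 0.78. The MAPS cytokine median depended on how genes at 0 UMIs were treated. With such genes placed at the floor of 3 UMIs it was 1.18, over the 4 genes that kept a value. Il12b, the shared p40 subunit of IL-12 and IL-23, is also on the mature programme list. It was found in 36%, 39.7%, 62.5% and 20% of mature cells, and in 3.61%, 5.44%, 4.65% and 0% of the others. One MAPS cell held all 32 Il12b UMIs of its group. Il4i1, an amino-acid oxidase that restrains T cells, was found in 84%, 75.9%, 75% and 60% of mature cells and stood at 490, 500.5, 329 and 830 CPM, against 6.84, 1.44, 18.3 and 15.6 CPM in the others. Cxcl16, a chemokine for CXCR6 T cells, was at 745, 796, 949 and 968 CPM in mature cells and 125.5, 187.5, 165 and 296 CPM in the others. Il15, a cytokine that sustains CD8 T and NK cells, was sparser, with 6, 16, 9 and 1 cells holding it.

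Of 5 measured genes of the regulatory list 2 were at least 1.5-fold higher in all 4 libraries and 1 was lower, and 3 were lower in all 3 vesicle libraries. Over all genes measured, 8.30% were higher and 11.3% lower in all 4 libraries, and 16.5% were lower in all 3 vesicle libraries. The median log2 ratios were -1.54 with IL-4/C1q EV, -0.68 with IL-1a/TNFa/C1q EV, -1.78 in UT EV and 0.52 with MAPS. The higher genes named next are thus not typical of the list. Of these, Cd274 and Socs2 held under 100 UMIs over the 2 sets, so they are not among the 5 genes counted. Cd274 stood at 153, 139, 75.9 and 415 CPM in mature cells and 6.84, 10.1, 11.01 and 5.20 CPM in the others, and was found in 10, 24, 5 and 2 mature cells. Cd200, a ligand that quiets myeloid cells and is also on the mature programme list, stood at 255, 279, 291 and 242 CPM, against 9.13, 8.65, 14.7 and 0 CPM. Socs2, a suppressor of cytokine signalling, stood at 214, 165, 304 and 311 CPM, against 4.56, 1.44, 0 and 0 CPM. Ido1 had no UMI in any mature cell, and Il10 had 1 UMI in all. Of 6 measured costimulation genes only 1 was higher in all 4 libraries and 1 was lower, beside 8.30% and 11.3% of all genes. Cd86, the CD28 ligand, had 184, 191.5, 88.5 and 277 CPM in mature cells and 162, 118, 205.5 and 249.5 CPM in the others.

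Many survival and MHC class I genes were higher in the mature cells. Of 12 survival genes measured 8 were at least 1.5-fold higher in all 4 libraries, beside the 8.30% of all genes. Birc2, an inhibitor of apoptosis that is also on the mature programme list, had 429, 400.4, 202 and 484 CPM against 27.4, 14.4, 29.4 and 83.2 CPM. Of 11 MHC class I genes 7 were higher in all 4 libraries, with median log2 ratios of 0.93, 1.01, 0.88 and 0.93. H2-Q7 had 1000.2, 1110, 822 and 934 CPM against 189, 212, 246 and 146 CPM, although class I genes and the Bcl2a1 family are near-identical copies whose reads can be split between them. Among the other leading genes, Anxa3, an annexin of the programme list, had 541, 588, 759 and 553 CPM in mature cells and 18.3, 14.4, 14.7 and 15.6 CPM in the others. Fabp5, a fatty-acid carrier, had 5420, 8334, 3909 and 1867 CPM in mature cells and 86.7, 196, 499 and 52.0 CPM in the others, while oligodendrocyte-like cells held 3172, 3100, 2855 and 914 CPM.

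MHC class II and antigen-capture genes were lower in the mature cells of the vesicle libraries. Of 10 class II genes measured, 8 were at least 1.5-fold lower in all 3 vesicle libraries, where 16.5% of all genes were, and 3 in all 4 libraries. The median log2 ratio was -1.39 with IL-4/C1q EV, -1.37 with IL-1a/TNFa/C1q EV, -1.54 in UT EV and 0.37 with MAPS. H2-Ab1, a chain of the I-A molecule, had 3174, 3752, 3491 and 13003 CPM in mature cells and 13334, 13321, 13328 and 10865 CPM in the others. H2-DMb1, a chain of the peptide-loading molecule H2-M, had 71.4, 43.5, 75.9 and 277 CPM in mature cells and 992, 714, 738 and 769 CPM in the others. Of 8 measured genes of antigen uptake and Toll-like receptors, leaving out Cd209a, 5 were lower in all 4 libraries, beside 11.3% of all genes. Clec10a, a lectin of conventional type 2 dendritic cells, had 0 UMIs in all 104 mature cells, against 93, 200, 55 and 63 UMIs in the others. Cd209a also had 0 UMIs in the mature cells, but it helped to choose the comparison cells and so is no comparison. The same choice may have raised Clec10a in the comparison cells. Ccr2, the receptor that brings monocyte-derived and type 2 dendritic cells into tissue, had 1 UMI in all in the mature cells and 75, 119, 42 and 164 UMIs in the others.

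Of 5 measured type 1 markers that did not choose the comparison cells, 4 were lower in the mature cells of all 4 libraries, beside 11.3% of all genes. Type 1 genes helped to choose the comparison cells, so other genes of that type can be higher there by the choice itself. Xcr1 and Clec9a, which did help choose those cells, were found in at most 3 mature cells of any library. Irf8, the transcription factor of the type 1 lineage, stayed at 572, 505, 455 and 934 CPM in mature cells, against 322, 278, 308 and 723 CPM in the others. Batf3, another type 1 factor, had 327, 335, 417 and 69.2 CPM against 82.1, 143, 161.5 and 62.4 CPM. Irf4 had 0, 1, 1 and 3 UMIs. Type 1 and type 2 origins of the mature cells were therefore not assigned. Aire, which marks another kind of cell that can carry Ccr7, had 1 UMI each with IL-4/C1q EV and IL-1a/TNFa/C1q EV.

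Mature cells with much Ccl5 tended to hold little Cd74 and H2-Aa. Scaled to 10000 UMIs, Ccl5 had a median of 324 with IL-4/C1q EV, 390 with IL-1a/TNFa/C1q EV and 400 in UT EV in the cells with 5 to 10 UMIs of Cd74. In cells with over 50 UMIs of Cd74 the medians were 44.6, 58.7 and 1.56. These groups held 13, 19 and 3 cells at the low end and 5, 19 and 3 cells at the high end, with values between 0 and 198 at the high end. Over single cells Ccl5 and Cd74 had Spearman correlations of -0.56 (25 cells), -0.70 (58 cells) and -0.58 (16 cells), a description of cells that share a library and whose counts share a total. With H2-Aa, a class II gene outside the rule, the correlations were -0.61, -0.62 and -0.41. Cd74 is part of the rule and its UMIs follow depth, and in UT EV the median Ccl5 was 110 UMIs both at 5 to 10 and at over 10 UMIs of Cd74. In the MAPS library 4 of 5 cells had over 50 UMIs of Cd74, and their median Ccl5 was 41.4 per 10000 UMIs.

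**Figure D4:**
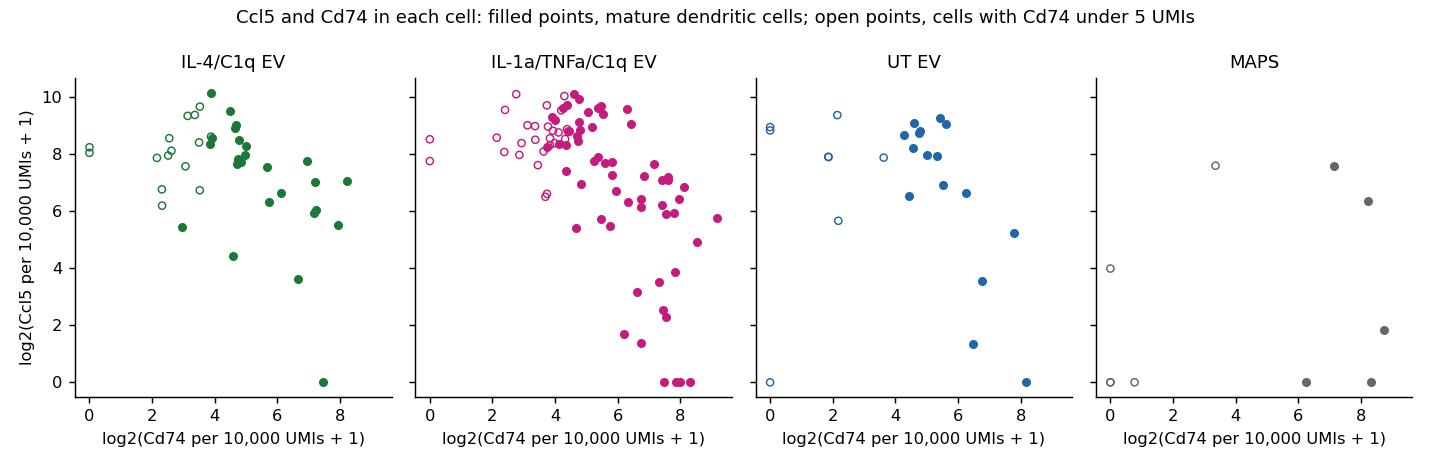
Ccl5 against Cd74 in single cells, both as log2(UMIs per 10000 UMIs + 1), for mature dendritic cells (filled) and for cells that met the rule except for holding under 5 UMIs of Cd74 (open). Most open points of the 3 vesicle libraries lie at high Ccl5, and 1 of the 8 UT EV open cells held none.

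In the vesicle libraries the Cd74 minimum left out cells with high Ccl5. Cells that met every other limit but held 0 to 4 UMIs of Cd74 numbered 15 with IL-4/C1q EV, 27 with IL-1a/TNFa/C1q EV, 8 in UT EV and 5 with MAPS. Their Ccl5 stood at 33663, 41950, 25629 and 2505 CPM. With them added, the shares of mature cells were 0.279%, 0.567%, 0.188% and 0.0723%, in the same order of groups as before. Of the 104 mature cells 36 lay just inside the limit, with 5 to 10 UMIs of Cd74. Cells with Fscn1 at 0 that met the other limits numbered 28, 56, 14 and 4, and their Ccl5 stood at 5969, 11155, 6458 and 182 CPM. Cells with Ccr7 at 0 that met the other limits had 474, 3824, 679 and 1380 CPM of Ccl5.

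Of the 104 mature cells 73 held at least 2 UMIs of other-lineage markers and 7 held at least 10. Of 13 T-cell genes outside the rule, 0, 3, 1 and 1 were detected, with 0, 4, 1 and 1 UMIs in all. Microglial genes outside the rule summed to 735, 1649, 481 and 1037 CPM in mature cells, against 3885, 4457, 4367 and 5113 CPM in oligodendrocyte-like cells, which should lack them. Monocyte and macrophage markers summed to 235, 709, 50.6 and 34.6 CPM, against 3028, 3770, 6565 and 3525 CPM in other conventional dendritic cells. Oligodendrocyte markers summed to 1225, 936, 152 and 2110 CPM in mature cells, against 162, 189, 183 and 369 CPM in other conventional dendritic cells. Markers of endothelial cells, astrocytes, oligodendrocytes, neurons, neutrophils or choroid plexus summed to at least 10 UMIs in 2, 2, 2 and 1 mature cells. The highest was a cell with IL-4/C1q EV that held 108 UMIs of oligodendrocyte markers, and a cell with UT EV held 68 UMIs of endothelial markers. All 10 endothelial markers were detected in the mature cells of that library, which summed to 1303 CPM, against 117 CPM in its other conventional dendritic cells. List medians that moved without these cells are given with both values below. Of the ratios of named genes 2 also moved and 31 did not, and no second value is given for these.

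Gene levels of the mature cells were next compared between libraries, as ratios of CPM with exact intervals for counting error. Between vesicle libraries few genes lay wholly past 1.5-fold. With IL-4/C1q EV over UT EV, 1.57% of 1019 measured genes had an interval wholly above 1.5-fold and 1.47% wholly below, and by the ratio alone 12.2% were at least 1.5-fold higher and 16.1% lower. The genes named are those whose interval cleared 1.5-fold, with no single cell holding more than 25% of the UMIs in the higher library and with a level above that of oligodendrocyte-like cells in the higher library.

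With IL-4/C1q EV over UT EV, Tspo was the 1 higher gene that met this rule and 4 were lower. Tspo, a mitochondrial outer-membrane protein used as a marker of neuroinflammation, stood at 3409 CPM with IL-4/C1q EV, 2542 CPM with IL-1a/TNFa/C1q EV, 1720 CPM with UT EV and 311 CPM with MAPS. The IL-4/C1q EV level was 1.98 times that with UT EV (1.62 to 2.44), and Tspo was found in 24 of 25 and 15 of 16 cells. Its medians per cell were close, at 10 UMIs with IL-4/C1q EV and 9 UMIs with UT EV. Other conventional dendritic cells had 1428, 1108, 1094 and 577 CPM. Rel, the c-Rel subunit of NF-kB that drives Il12b, stood at 653, 966, 1429 and 1176 CPM, and the ratio was 0.457 (0.331 to 0.626). With the cells of low Cd74 added, the log2 ratio of Rel was -0.56. Avpi1 stood at 408, 657, 987 and 207 CPM, with a ratio of 0.414 (0.275 to 0.613). Coq10b, a coenzyme Q-binding mitochondrial protein, had 5 UMIs with IL-4/C1q EV and 23 in UT EV, a ratio of 0.175 (0.0521 to 0.472), and Spr, sepiapterin reductase, had a ratio of 0.179 (0.0441 to 0.544).

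Several list medians in this comparison depended on which cells were kept. The mature programme had 3 of 27 measured genes at least 1.5-fold higher and 4 lower with IL-4/C1q EV, with a median log2 ratio of -0.19 beside -0.05 over all genes, and 0.16 with the cells of low Cd74 added. MHC class II had 0 of 5 genes past 1.5-fold in each direction and a median of -0.06. The interferon list had 3 of 9 genes higher and 1 lower, with a median of 0.05. Many of these UMIs sat in few UT EV cells. The cell with the most held 38.6% of H2-Aa, 52.5% of H2-Ab1 and 47.8% of H2-Eb1 UMIs in that library, and 1 cell held all 23 UMIs of Ifit3. Without the 7 cells that held at least 10 UMIs of other-lineage markers, 2 of them with UT EV, the medians were 0.92 for MHC class II and 0.94 for the interferon list.

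With IL-1a/TNFa/C1q EV over UT EV, 1.24% of 1527 genes had an interval wholly above 1.5-fold and 1.24% wholly below, and 15.7% were at least 1.5-fold higher by the ratio and 17.1% lower. Il1b, the inflammatory cytokine IL-1 beta, led the 4 higher genes. It stood at 959 CPM with IL-4/C1q EV, 1349 CPM with IL-1a/TNFa/C1q EV, 291 CPM with UT EV and 899 CPM with MAPS, in 9, 36, 6 and 3 cells. The ratio over UT EV was 4.64 (3.03 to 7.43). Other conventional dendritic cells held more, at 3231, 3745, 2796 and 1606 CPM. Markers of other myeloid cells were also higher: microglial genes outside the rule summed to 1649 CPM with IL-1a/TNFa/C1q EV and 481 CPM with UT EV, with 9 and 6 of 11 detected, and monocyte and macrophage markers to 709 and 50.6 CPM, with 11 and 3 of 13 detected. Their part in the levels of Il1b and Aif1 was not tested. Fabp5 was 2.13 times higher (1.89 to 2.41) and Aif1, the myeloid protein also called Iba1, 3.12 times (1.83 to 5.73). Cd48, an adhesion ligand of lymphocyte receptors, had 21 UMIs in 16 of 58 cells and 0 UMIs with UT EV, which is at least 2.41-fold higher against the floor of 3 UMIs. Gyg, which primes glycogen synthesis, had a ratio of 0.274 (0.170 to 0.437), and Dnajc1, a chaperone partner of the endoplasmic reticulum, 0.258 (0.111 to 0.581).

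In the mature programme, 9 of 33 genes were at least 1.5-fold higher with IL-1a/TNFa/C1q EV than with UT EV and 3 lower, with a median log2 ratio of -0.06 beside -0.09 over all genes. Ccl22 had 335 CPM with IL-1a/TNFa/C1q EV and 152 CPM with UT EV, a ratio of 2.21 (1.19 to 4.46), but 27.3% and 50% of these UMIs came from 1 cell. MHC class II had 1 of 7 genes higher and 0 lower, with a median of 0.31. H2-Aa was at 6419 CPM with IL-1a/TNFa/C1q EV and 4946 CPM with UT EV, a ratio of 1.3 (1.16 to 1.45). Without the cells that held at least 10 UMIs of other-lineage markers the class II median was 1.36. The interferon list had 0 of 8 genes higher and 2 lower, with a median of -0.36, which was 0.07 without the same cells and -0.02 with TMM factors, described next. The dendritic transcription factor list had 0 of 14 genes higher and 6 lower, with a median of -0.24, which was 0.10 with TMM factors. With TMM factors, which scale on the bulk of genes, the median of all genes in this comparison was 0.25 and that of the mature programme 0.28, a shift that reaches every list.

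With IL-4/C1q EV over IL-1a/TNFa/C1q EV, 0.823% of 1579 genes lay wholly above 1.5-fold and 0.760% wholly below, and 14.8% were at least 1.5-fold higher by the ratio and 13.4% lower. Interferon-response genes stood on the higher side, with 5 of 8 measured genes at least 1.5-fold higher, 0 lower and a median log2 ratio of 0.76 beside 0.06 over all genes. With TMM factors these medians were 0.51 and -0.19. Isg15, a ubiquitin-like protein induced by type I interferon, stood at 1255 CPM with IL-4/C1q EV and 701 CPM with IL-1a/TNFa/C1q EV, a ratio of 1.79 (1.41 to 2.28). It was found in 13 of 25 and 27 of 58 cells with medians of 1 and 0 UMIs, and the 4 cells with the most held 99 of 123 UMIs with IL-4/C1q EV, 1 of them a called doublet, and 90 of 161 with IL-1a/TNFa/C1q EV. Bst2, or tetherin, stood at 755 and 383 CPM, a ratio of 1.97 (1.43 to 2.72). Xaf1 had a ratio of 4.4 (1.75 to 12) and Ifitm3 1.60 (1.22 to 2.10), and with IL-4/C1q EV 1 cell held 40% of Xaf1 and 28.4% of Ifitm3 UMIs. Without called doublets the list median was 0.64. With UT EV these genes lay between or near the others, at 923 CPM of Isg15 and 443 CPM of Bst2.

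The same genes were higher with IL-4/C1q EV outside the mature cells too. Isg15 stood at 949 CPM with IL-4/C1q EV and 151 CPM with IL-1a/TNFa/C1q EV in other conventional dendritic cells, and at 156 and 54.0 CPM in oligodendrocyte-like cells. Bst2 stood at 1424 and 551 CPM in other conventional dendritic cells, and at 357 and 175 CPM in oligodendrocyte-like cells. The part of free RNA in their level in mature cells was not tested.

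The named genes of this comparison were of mixed function. Higher with IL-4/C1q EV were Slc4a8, a bicarbonate transporter, at 4.69 (1.89 to 12.7), Nudt9, an ADP-ribose hydrolase, at 3.03 (1.72 to 5.39), and Erp29, a chaperone of the endoplasmic reticulum, at 2.39 (1.59 to 3.59). Lower were the proteasome subunit Psma6 at 0.168 (0.0441 to 0.453), Coq10b at 0.249 (0.0774 to 0.625) and Apol7c at 0.213 (0.0556 to 0.586). Apol7c, an apolipoprotein L family gene, had 4 UMIs in 2 of 25 cells and 44 UMIs in 12 of 58 cells, and 0 UMIs in other conventional dendritic cells of all 4 libraries. H2-M2, a class Ib gene of the mature programme, had 0 UMIs with IL-4/C1q EV, 62 UMIs in 17 cells with IL-1a/TNFa/C1q EV, 2 in UT EV and 0 with MAPS, and 1 cell held 35.5% of the 62. In the mature programme 1 of 34 genes was higher and 7 were lower, with a median of 0.00. Among the lower genes, Cd40, the receptor by which T cells license dendritic cells, had 6 UMIs and 40 UMIs, a ratio of 0.352 (0.122 to 0.835). Il12b had a ratio of 0.524 (0.355 to 0.756). It was found in 9 of 25 and 23 of 58 cells, and with IL-4/C1q EV 1 cell held 41.7% of its UMIs. In the cells left out for low Cd74, Il12b was the other way round, at 868 CPM with IL-4/C1q EV and 490 CPM with IL-1a/TNFa/C1q EV.

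**Figure D5:**
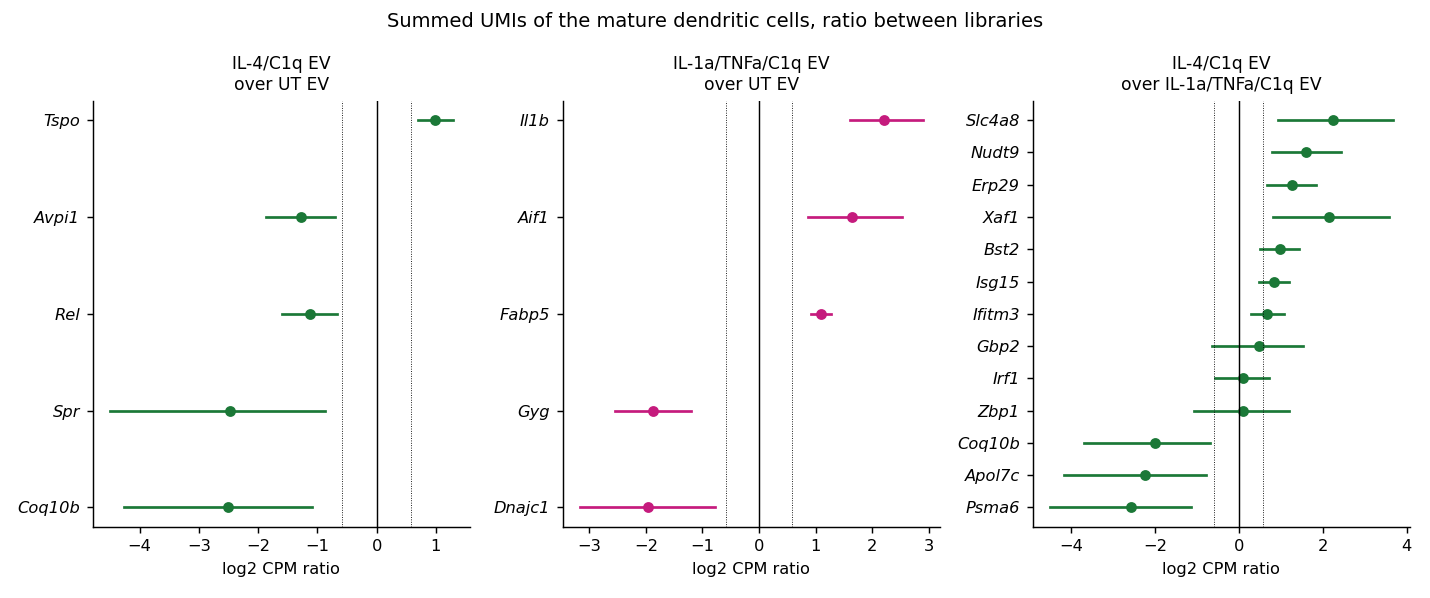
Log2 CPM ratios between vesicle libraries in summed mature dendritic cells, with exact 95% intervals for counting error and dotted lines at 1.5-fold. Shown are the named genes with UMIs in both libraries and, in the right panel, 7 of the 8 measured interferon-response genes, whose ratios are all above 1.

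Against MAPS alone the ratios were wide. With 5 cells on the MAPS side, 41.3% of 766 genes were at least 1.5-fold higher with IL-4/C1q EV and 27.3% lower, and 11.1% and 11.6% by the whole interval. With IL-1a/TNFa/C1q EV over MAPS 44.1% of 1349 genes were higher and 27.6% lower, and 6.67% and 10.2% by the whole interval. Of 672 genes measured in UT EV over MAPS 43.0% were higher and 27.1% lower, and 11.9% and 10.9% by the whole interval. Ccl5 was 3.74 times higher with IL-4/C1q EV than with MAPS (3.22 to 4.36) and 3.36 times higher with UT EV (2.88 to 3.93). In oligodendrocyte-like cells it was lower with these 2 vesicle libraries than with MAPS. The MAPS level of Ccl5 came from 185 UMIs in 3 of the 5 mature cells, and 1 cell held 70.3% of them. The limit of 25% per cell applied to the higher library only. Txn1, thioredoxin, was 16.6 times higher with IL-4/C1q EV (6.39 to 61.5), 12.2 times with IL-1a/TNFa/C1q EV (4.73 to 45.0) and 11.1 times with UT EV (4.21 to 41.3). In oligodendrocyte-like cells Txn1 stood at 299.7, 306 and 243 CPM in the vesicle libraries and 104 CPM with MAPS, so it differed in the same direction outside the mature cells. Tnfaip8, a regulator of cell survival, had 107 UMIs in 43 cells with IL-1a/TNFa/C1q EV, against 0 with MAPS, at least 4.49-fold higher. No lower gene could be named against MAPS, since the limit of 25% per cell was met by none of the 68 listed or named genes with at least 15 UMIs there. For each of them 1 of the 5 cells held at least 27.8% of the UMIs.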

How the data were processed

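Cells came from enzymatically dissociated hemispheres, depleted of erythrocytes and dead cells, and were run on 10x 3′ v3 chips, per the labels' protocols. The authors deposited whole-number UMI counts for 4 libraries. The file headers name Cell Ranger 8.0.1. The submitters' processing notes list Seurat 4.1.0, Cell Ranger 7.0.0, bcl2fastq 5.0.1 and build GRCm39. Barcodes needed 500 UMIs, 300 genes and a mitochondrial share of 20% or less. Doublets were called per library with scrublet in scanpy 1.11.5 and kept in the values reported. Counts were summed over the mature cells of each library, scaled to CPM and compared as ratios with exact conditional binomial intervals (Python 3.11.15, scipy 1.17.1). Shares carry Clopper-Pearson intervals. PCR and sampling of animals are not covered by either. The ratio intervals also leave out variation between cells. Genes needed 20 UMIs over a pair of libraries, with 15 in the higher one. Up to 8 genes per direction were named, or 5 against MAPS, by the rule given with the results, which also left out predicted, ribosomal, mitochondrial, haemoglobin, immunoglobulin and sex-linked genes and those of the cell rule. Lists with under 5 measured genes, and list medians against the 5 MAPS cells, are not given. Thinning, TMM factors (edgeR 4.0.16) and other limits were alternatives. The steps were tested on simulated counts, which held no variation between cells. The members and gene lists were chosen with earlier results of these data known. A few genes are not reported here.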

Additional observations from a re-analysis of the deposited data

How the results depend on the processing

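No named gene's ratio past its interval limit changed direction, whereas several list medians between the vesicle libraries changed sign. Of the shares of mature cells 26 recomputed values stayed within the counting interval and 10 did not. With Ccl22 or Ccl17 also required they were 0.0628% with IL-4/C1q EV, 0.227% with IL-1a/TNFa/C1q EV and 0.0470% with UT EV. Without cells holding at least 2 UMIs of other-lineage markers, which left out 73 of the 104, they were 0.0419%, 0.127%, 0.0470% and 0%, the last with MAPS, and there alone IL-4/C1q EV fell under UT EV (0.891 times). With no Cd74 minimum (chosen after seeing the data) they were 0.279% with IL-4/C1q EV and 0.567% with IL-1a/TNFa/C1q EV, and with 2 UMIs of Ccr7 and Fscn1 required 0.240% with IL-1a/TNFa/C1q EV. The mature share of dendritic cells with IL-1a/TNFa/C1q EV was 35.7% after thinning and 19.7% with 2 UMIs required.

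Of the recomputed list medians 35 moved and 285 did not. For IL-4/C1q EV over UT EV, MHC class II was 1.09 without cells holding at least 2 UMIs of other-lineage markers and 0.92 without those holding at least 10 (chosen after seeing the data), and the interferon list was 1.84 with 2 UMIs of Ccr7 and Fscn1 required and 0.94 without cells holding at least 10. For IL-1a/TNFa/C1q EV over UT EV, MHC class II was 2.17 and 1.36 under the same 2 marker limits, the interferon list was 0.56 with 2 UMIs required, 0.56 and 0.0694 under the marker limits and -0.0207 with TMM factors, and the mature programme was 0.28 with TMM factors. For IL-4/C1q EV over IL-1a/TNFa/C1q EV the mature programme was -0.16 without cells holding at least 2 marker UMIs and -0.25 with TMM factors, while the interferon list stayed between 0.39 and 0.99 under every setting. The causes were not tested. Of the recomputed ratios of named genes 27 moved and 189 did not. No paired analysis was possible because each group is 1 library. With 5 cells in MAPS and 16 in UT EV, single cells set many levels.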
